A study of Homo sapiens with 33 samples.

Results

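The comparison described here set cells of the B cell lymphoma line Karpas422 after 24 h in DMSO against cells at 0 h. Its members were the 3 arrays titled for 24 h of DMSO and the 3 titled for 0 h, 6 of the 33 arrays of the series, and all 19775 genes were measured on each. The series followed these cells, grown in RPMI medium with fetal bovine serum, in DMSO, the solvent, or in 5 µM EED226, an inhibitor that binds the EED subunit of the Polycomb complex PRC2. The groups follow the sample titles, which name EED226 and times from 0 and 8 h on, while the design text speaks of an EZH2 inhibitor at 1, 2, 3 and 6 days and the treatment protocol also names EI1. Each of the series' 11 groups held 3 arrays, and the design text calls them biological triplicates. Every group is the same cell line, which the series title calls EZH2 mutant. The labels do not say how the 0 h cells were handled, so the effect of DMSO and that of a day in culture cannot be told apart. Expression was measured in total RNA of the whole culture, so a change in every cell and a larger change in a share of the cells cannot be told apart either.

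Interferons are secreted proteins that cells make on sensing viral or misplaced nucleic acid. They bind receptors that activate JAK kinases and a factor complex whose DNA-binding subunit is IRF9, and this complex switches on interferon-stimulated genes by binding a short element, the interferon-stimulated response element (ISRE). The products include sensors of RNA, antiviral effectors, further factors such as IRF7 that amplify the response, and brakes such as USP18.

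The levels are log2 values of Affymetrix arrays, so a difference of 1 is a 2-fold change, and a gene is represented by its brightest probe set over all 33 arrays. Differences were tested with limma, two-sided, and a gene is said to have passed where its Benjamini-Hochberg adjusted p over all genes was under 0.05. The array medians lay between 4.06 and 4.18 over the 33 arrays. Arrays of the 24 h DMSO group correlated with r of at least 0.996 across probe sets, and those at 0 h with at least 0.995. The array DMSO 6 days replicate 3 stood apart, with an r of 0.986 to its group. Between 24 h DMSO and 0 h it enters only the estimate of the spread and the choice of probe sets. It is also part of the values at 6 days in DMSO given below. The 3′ minus 5′ signal of ACTB, a measure of RNA integrity, was 3.07, 3.24 and 3.12 in the 24 h DMSO arrays and 3.11, 2.79 and 3.33 in the 0 h arrays, and these values overlapped.

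Of 11 B cell markers measured, none had a group mean below the lowest array median, and their mean level was 10.39 to 10.44 in the 24 h DMSO arrays and 10.37 to 10.51 in the 0 h arrays. Markers of other cell types did not pass: 0 of 15 of T and NK cells (mean level 4.98 to 5.07 at 24 h in DMSO, 4.92 to 5.04 at 0 h), 0 of 9 myeloid (3.63 to 3.71, against 3.54 to 3.58), 0 of 14 stromal, endothelial or epithelial (4.45 to 4.58, against 4.30 to 4.51) and 0 of 6 erythroid or platelet (4.11 to 4.16, against 4.001 to 4.287). Several single markers were bright in both groups. CD3G averaged 10.47 at 24 h in DMSO and 10.56 at 0 h, CD247 9.77 and 9.63, CD3D 8.93 and 8.99, and DCN 12.48 and 12.51, while CD3E averaged 4.43 and 4.50. Of these lists, 7, 7, 7 and 2 members lay below the lowest array median, among them CD8A (3.30 in both groups), CD14 (3.16 and 3.05), LYZ (3.10 and 3.19) and LUM (2.60 and 2.54). Their part in the results was not tested.

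Few genes passed between 24 h in DMSO and 0 h, and many of these were interferon-stimulated genes. Of 19775 genes, 31 rose (0.157%) and 4 fell (0.0202%), together 0.177%. The list of interferon-stimulated genes had 39 measured members, of which 14 rose (35.9%) and none fell. The lists were chosen with earlier results of these data known, so their shares here and below are not independent of the data. The rises of IFIT1, IFI44L, IFIT3 and IFIT5 were at least 2-fold. The 4 genes that fell were PSPC1, TOMM20, CIRBP and AZIN1. Before adjustment, 1461 genes had a p under 0.05. The counts moved with the arrays fitted. With only the 6 arrays compared, 6 genes rose and 0 fell, and without DMSO 6 days replicate 3 in the fit, 65 rose and 14 fell. In all, 14, 22 and 14 genes passed without 24 h DMSO replicates 1, 2 and 3, and 15, 13 and 46 without 0 h replicates 1, 2 and 3.

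**Figure D1:**
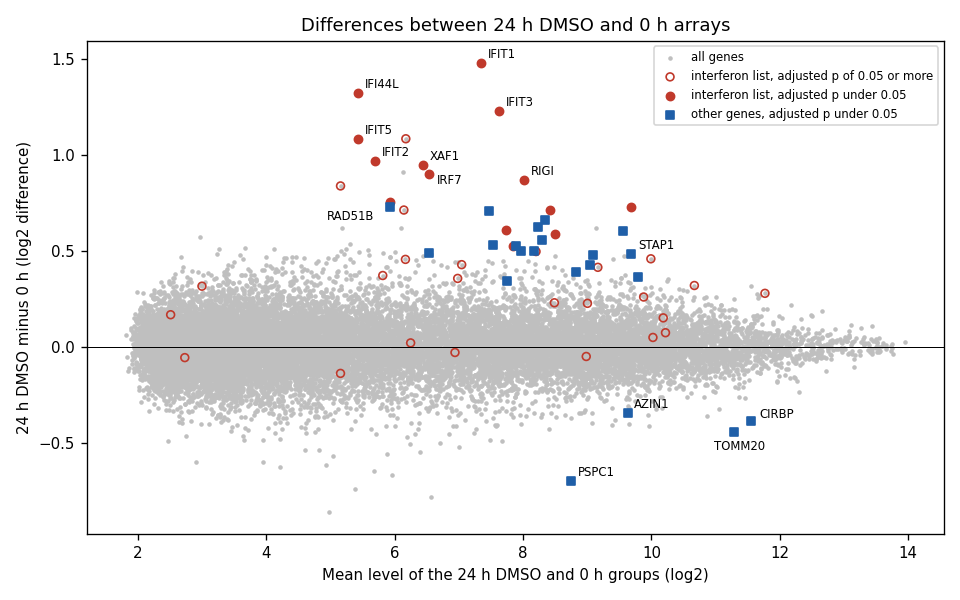
Difference between 24 h DMSO and 0 h (vertical axis, log2) against the mean level of the 2 groups (horizontal axis, log2) for 19775 genes, grey. Filled red circles are the 14 interferon-list genes that passed, open red circles the 25 that did not, and blue squares the other 21 genes that passed. IFIT1 has the largest difference, 1.48, and the median of all genes is 0.0039.

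Because the interferon genes carry most of the large differences, the sequence at their starts is given before their values. A RefSeq window of the human assembly GRCh38.p14, 250 bases before to 50 bases after a gene's start, was at hand for 30 of the 39 interferon-list genes and for 15384 of the 19775 tested. Some genes had several windows, one for each listed start, and any of them was counted. The windows were searched on both strands for GAAAC and GAAA with any 1 base between them, called the strict ISRE here, and for GAAA and GAAA with any 2 bases between them, the loose ISRE. Every strict match is also a loose match, and the loose form was added after the data were seen. The promoter windows of IFIT1 and RIGI, the 2 members of the list with the smallest p, are shown 5′ to 3′ on the strand of the gene, with matches in capitals. IFIT1 lies on chromosome 10 (chr10:89392373-89392672, plus strand) and RIGI on chromosome 9 (chr9:32526147-32526446, minus strand).
IFIT1: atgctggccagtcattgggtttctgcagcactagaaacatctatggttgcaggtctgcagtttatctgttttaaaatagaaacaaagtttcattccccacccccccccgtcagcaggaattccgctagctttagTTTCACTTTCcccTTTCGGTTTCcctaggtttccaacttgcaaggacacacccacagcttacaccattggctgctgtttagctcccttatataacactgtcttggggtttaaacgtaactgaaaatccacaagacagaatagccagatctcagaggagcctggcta
RIGI: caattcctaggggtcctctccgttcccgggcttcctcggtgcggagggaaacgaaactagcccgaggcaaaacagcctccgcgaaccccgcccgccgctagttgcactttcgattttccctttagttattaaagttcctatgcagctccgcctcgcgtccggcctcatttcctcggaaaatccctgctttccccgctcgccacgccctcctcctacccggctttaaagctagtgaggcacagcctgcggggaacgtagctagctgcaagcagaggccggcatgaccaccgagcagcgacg
The IFIT1 window holds 2 matches, read on the strand opposite the gene, whose first capitals lie 116 and 103 bases before the start, and the nearer one is strict. No match was found in the RIGI window, which says only that these letters are not in it.

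Among the other genes that rose, the strict matches are shown with 10 bases on each side, first in IFIT3 (chr10:89332425-89332454), then at 2 places in IFIT5 (chr10:89414513-89414542 and chr10:89414554-89414583, all plus strand), in SAMD9 (chr7:93118096-93118125, minus strand) and in EPSTI1 (chr13:42992272-42992301, minus strand).
IFIT3: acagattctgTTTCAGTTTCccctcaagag
IFIT5, first: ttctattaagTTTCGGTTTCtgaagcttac
IFIT5, second: atttcttaagTTTCAGTTTCtgagcgctcg
SAMD9: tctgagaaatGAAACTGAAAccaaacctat
EPSTI1: ctgattctgaGAAACCGAAActcagctgtt
The window of IFI44L holds the same 30 letters at 2 places (chr1:78620274-78620303 and chr1:78620365-78620394, plus strand), each with a loose match.
IFI44L: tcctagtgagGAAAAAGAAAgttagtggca
Among the genes outside the interferon list that rose, loose matches lay in PLSCR1 (chr3:146544667-146544696, minus strand), TRIM69 (chr15:44736456-44736485, plus strand) and CARD8 (chr19:48249875-48249904, minus strand).
PLSCR1: cgggaaccggGAAAAGGAAAccgtgttgtg
TRIM69: ctaatgagggTTTCTCTTTCtcttaagcaa
CARD8: gagggccccaTTTCCCTTTCcgacagcctc

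The strict letters occurred in a window of 17 of the 30 interferon-list genes (56.7%), against 140 of the 15384 tested genes with a window (0.91%). Counted by window rather than by gene, they occurred in 0.763% of all 35116 windows. By outcome, 5 of the 11 interferon genes that rose and had a window held it (45.5%), and 12 of the 19 that did not pass (63.2%). It was found in 0 of the 16 other genes that rose and in 0 of the 3 that fell. The loose letters occurred in a window of 21 of the 30 interferon-list genes (70.0%), against 613 of the 15384 genes tested (3.98%), and, counted by window, in 3.57% of all windows. Of the 16 other genes that rose, 3 held them (18.8%), and again 0 of the 3 that fell. A match describes the letters in a window and does not show that a factor binds there.

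Other genes of the pathway, outside the interferon list, were taken from a list drawn up after the values were seen. It leaves out members of the interferon list, which are described with that list, among them the sensors RIGI, DHX58 and IFIH1, the factors IRF7, IRF9 and IRF1 and the brake USP18. None of 18 interferon genes passed, with means of 2.11 to 3.82 in 24 h DMSO arrays and 2.20 to 3.88 in 0 h arrays, all below the lowest array median of 4.06, where a difference is hard to measure (smallest adjusted p = 0.584, limma). None of 6 receptor genes passed, with differences from -0.14 to 0.19, nor did 3 kinases (0.04 to 0.16). Of the genes left after the members of the interferon list, none of 5 other factors (-0.09 to 0.23), 16 other sensors and adaptors (-0.12 to 0.22) and 2 SOCS inhibitors (0.01 and 0.04) passed. A p that misses the threshold does not show that these levels were the same.

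Both factor genes of the interferon list other than IRF1 rose. IRF7, which drives the transcription of interferon genes, had levels of 7.14, 6.69 and 7.11 in the 24 h DMSO arrays, against 6.08, 6.20 and 5.97 in the 0 h arrays, a difference of 0.90 ± 0.12 (SE, adjusted p = 0.000307, limma). IRF9, the DNA-binding subunit of the complex activated by type I interferon, had 8.74, 8.74 and 8.87 at 24 h in DMSO and 8.24, 8.01 and 8.34 at 0 h, a difference of 0.59 ± 0.09 (adjusted p = 0.00118, limma). In both, every 24 h array lay above every 0 h array. IRF1, induced by interferon gamma, averaged 5.09 at 24 h in DMSO and 5.22 at 0 h and did not pass (-0.14 ± 0.13, adjusted p = 0.921, limma).

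Among sensors of double-stranded RNA, RIGI rose. Its product detects short RNA with a 5′ triphosphate. Its levels were 8.48, 8.28 and 8.59 in 24 h DMSO arrays and 7.64, 7.43 and 7.67 in 0 h arrays, a difference of 0.87 ± 0.09 (adjusted p = 6.36e-06, limma). The groups were well apart, and 2 other probe sets of RIGI also gave positive differences, 0.84 and 0.47. DHX58, a relative of RIGI that tunes its signal, had 6.41, 6.24 and 6.54 at 24 h in DMSO and 5.93, 5.93 and 5.96 at 0 h, without overlap, but did not pass (0.46 ± 0.11, adjusted p = 0.108, limma). IFIH1, the sensor of long double-stranded RNA, averaged 3.15 at 24 h in DMSO and 2.84 at 0 h, below the array medians (0.32 ± 0.17, adjusted p = 0.723, limma). EIF2AK2, the kinase PKR that halts translation on binding double-stranded RNA, had 9.34, 9.23 and 9.55 at 24 h in DMSO and 9.03, 8.74 and 9.11 at 0 h, again without overlap and without passing (adjusted p = 0.205, limma).

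The IFIT genes encode proteins that bind foreign RNA and block its translation, and the 4 of them in the interferon list, on chromosome 10, all rose. IFIT1 had levels of 8.05, 7.98 and 8.24 at 24 h in DMSO, against 6.80, 6.55 and 6.49 at 0 h, a difference of 1.48 ± 0.14 or 2.78-fold (adjusted p = 7.4e-07, limma). IFIT3 had 8.26, 7.95 and 8.51 at 24 h in DMSO and 6.97, 7.05 and 7.03 at 0 h, a difference of 1.23 ± 0.14 or 2.34-fold (adjusted p = 3.02e-05, limma). In both genes the 0 h arrays lay close together and far below the 24 h arrays. IFIT5 had 5.93, 5.82 and 6.19 at 24 h in DMSO and 4.94, 4.98 and 4.77 at 0 h, a difference of 1.08 ± 0.15 or 2.12-fold (adjusted p = 0.000307, limma). IFIT2 had 6.21, 5.83 and 6.495 at 24 h in DMSO and 5.24, 4.90 and 5.49 at 0 h, a difference of 0.97 ± 0.18 (adjusted p = 0.0193, limma). The IFIT2 groups did not overlap but came within a narrow gap. In the RefSeq gene order IFIT2 is next to IFIT3, and IFIT1 next to IFIT5.

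IFI44L, an interferon-induced gene of incompletely known function, had the next largest difference after IFIT1. It had 6.09, 5.81 and 6.38 at 24 h in DMSO and 4.88, 4.75 and 4.68 at 0 h, a difference of 1.32 ± 0.17 or 2.50-fold (adjusted p = 0.000153, limma). Its neighbour on chromosome 1, IFI44, did not pass, although its levels of 8.39, 8.30 and 8.66 at 24 h in DMSO lay above 8.02, 8.13 and 7.71 at 0 h (0.50 ± 0.15, adjusted p = 0.26, limma). The pair thus differed in call and not in sign, and the missing call of IFI44 holds for its brightest probe set. With the mean of all its probe sets the IFI44 difference was 0.77 and passed. SAMD9 and SAMD9L, neighbours on chromosome 7 whose products restrict poxviruses and growth, both rose. SAMD9 had 9.95, 9.81 and 10.38 at 24 h in DMSO and 9.28, 9.16 and 9.52 at 0 h, a difference of 0.73 ± 0.14 (adjusted p = 0.0177, limma). SAMD9L had 7.98, 7.94 and 8.20 at 24 h in DMSO and 7.34, 7.38 and 7.56 at 0 h, a difference of 0.61 ± 0.09 (adjusted p = 0.00127, limma). All 3 arrays of the 24 h group were the higher ones in both genes.

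The OAS genes make the messenger that activates the RNA-degrading enzyme RNase L. OAS1 rose, with 8.81, 8.51 and 8.99 at 24 h in DMSO and 7.91, 8.18 and 8.08 at 0 h, a difference of 0.71 ± 0.11 (adjusted p = 0.00162, limma). OAS2 had 6.46, 6.40 and 6.63 at 24 h in DMSO and 5.93, 5.98 and 5.45 at 0 h, a difference of the same size but a higher adjusted p of 0.0731 by limma. OAS3 averaged 7.26 at 24 h in DMSO and 6.83 at 0 h (0.43 ± 0.16, adjusted p = 0.464, limma). The 3 genes adjoin each other on chromosome 12, and in all 3 the groups did not overlap.

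XAF1, which antagonises an inhibitor of apoptosis, USP18, which removes ISG15 from proteins and restrains interferon signalling, and EPSTI1 completed the 14. XAF1 had 7.02, 6.87 and 6.87 at 24 h in DMSO and 6.01, 5.98 and 5.93 at 0 h, a difference of 0.95 ± 0.20 (adjusted p = 0.0368, limma). USP18 had 6.22, 6.34 and 6.36 at 24 h in DMSO and 5.53, 5.66 and 5.46 at 0 h (0.75 ± 0.16, adjusted p = 0.0462, limma). EPSTI1 had 8.15, 7.997 and 8.17 at 24 h in DMSO and 7.60, 7.65 and 7.50 at 0 h (0.52 ± 0.10, adjusted p = 0.0304, limma). In each the 3 arrays of a group lay close together. XAF1 and USP18 passed in none of the 6 fits that left out 1 of the compared arrays, EPSTI1 in 1, IFIT2 in 2 and SAMD9 in 3, and the other 9 of the 14 in all 6. With only the 6 arrays compared, 6 of the 14 passed, which were IFIT1, IFI44L, IFIT3, IFIT5, XAF1 and USP18.

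**Figure D2:**
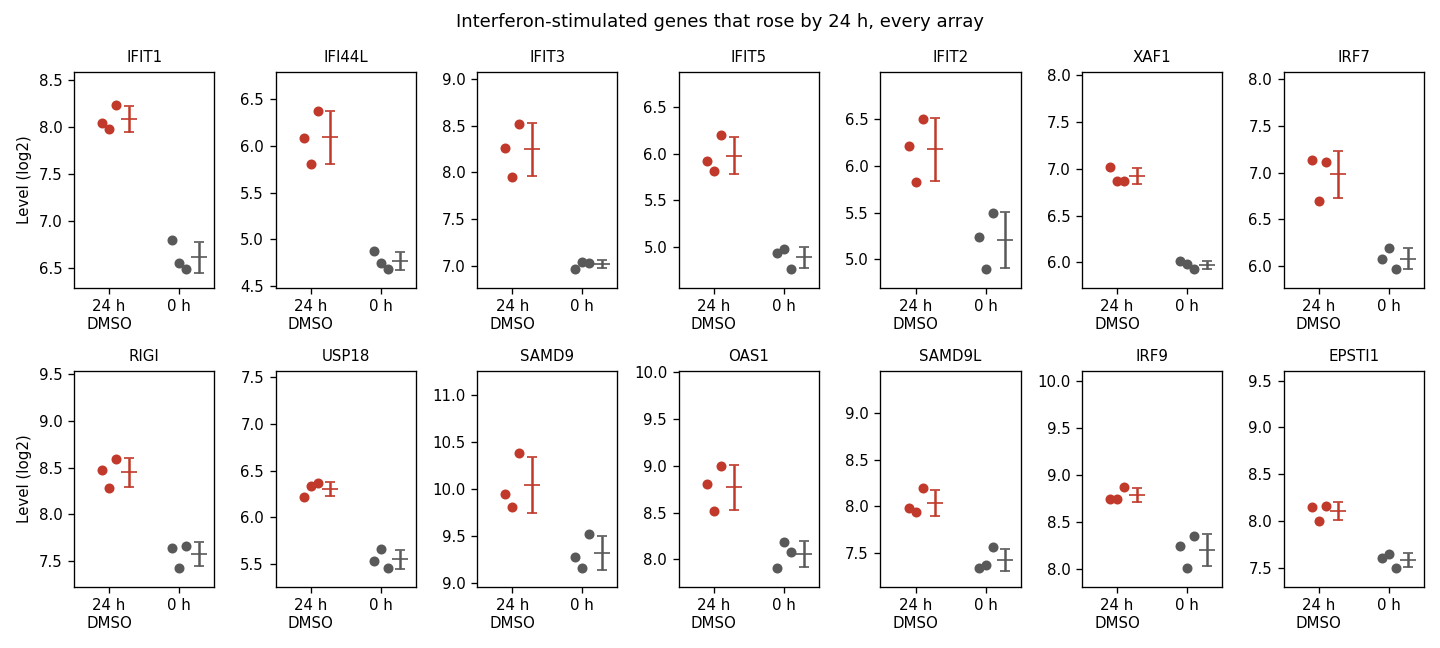
Levels (log2, each panel spanning an equal range) of the 14 interferon-list genes that passed, in the 3 arrays at 24 h in DMSO (red, left) and the 3 at 0 h (grey, right). Points are arrays, and the dash with its bar is the mean with SD. In every panel the red points lie above the grey ones.

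The 25 interferon-list genes that did not pass spread over a wider range. Their differences ran from -0.14 to 1.08 with a median of 0.28, and 21 were positive. RSAD2, the antiviral enzyme viperin, had 6.77, 6.38 and 7.003 at 24 h in DMSO and 5.59, 5.78 and 5.53 at 0 h, a difference of 1.08 ± 0.24 (adjusted p = 0.0517, limma). OASL, which enhances RIGI signalling, had 5.67, 5.18 and 5.87 at 24 h in DMSO and 4.47, 4.95 and 4.79 at 0 h (0.84 ± 0.18, adjusted p = 0.0517, limma). Both had groups that did not overlap and stood just outside the threshold. CMPK2, a nucleotide kinase next to RSAD2, had 10.28, 9.99 and 10.40 at 24 h in DMSO and 9.92, 9.68 and 9.70 at 0 h (0.46 ± 0.11, adjusted p = 0.096, limma).

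For some well-known members the 0 h arrays were far apart. ISG15, the ubiquitin-like modifier, had 11.84, 11.72 and 12.17 at 24 h in DMSO and 11.39, 12.31 and 11.19 at 0 h (0.28 ± 0.25, adjusted p = 0.914, limma). IFI6 had 9.91, 10.09 and 10.14 at 24 h in DMSO and 9.72, 10.78 and 9.50 at 0 h (0.05 ± 0.29, adjusted p = 0.992, limma). IFI27 had 6.17, 6.41 and 6.20 at 24 h in DMSO and 6.00, 6.82 and 5.89 at 0 h (0.02 ± 0.29, adjusted p = 0.998, limma). In all 3 genes 0 h replicate 2 was the highest of the 6 arrays, and the other 0 h arrays were the lowest. Without that array the differences were 0.62 for ISG15, 0.44 for IFI6 and 0.31 for IFI27. Without 0 h replicate 3 they were 0.0598, -0.20 and -0.15. For IFI27, leaving out 24 h DMSO replicates 1, 2 and 3 gave 0.0653, -0.0558 and 0.0527. The size and, for IFI6 and IFI27, the sign thus moved with single arrays. None of the 3 genes passed in any fit that left out an array. The antiviral GTPase MX1 had 10.86, 10.59 and 11.04 at 24 h in DMSO and 10.58, 10.66 and 10.29 at 0 h, with overlap (0.32 ± 0.12, adjusted p = 0.51, limma). Its relative MX2 averaged 7.16 at 24 h in DMSO and 6.80 at 0 h, without overlap (0.36 ± 0.14, adjusted p = 0.487, limma).

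Over the whole interferon list the 3 values of the groups did not overlap for 27 of 39 members, always higher at 24 h in DMSO (69.2%), where 7.79% of all genes were separated in that direction and 6.3% in the other. The differences were positive for 35 members and negative for 4, with a median of 0.46 beside 0.0039 for all genes. Leaving out 1 array at a time moved this median between 0.38 and 0.53. The list's median level per array was 7.98, 7.94 and 8.17 at 24 h in DMSO and 6.91, 7.05 and 6.81 at 0 h. The number of members that rose was 9 without 24 h DMSO replicate 3, without 0 h replicate 1 and without 0 h replicate 2, and 18 without DMSO 6 days replicate 3 in the fit.

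Outside the interferon list, 17 genes rose, by smaller amounts (0.34 to 0.73), and none is a member of another list. The one with the largest difference was RAD51B, a homologous recombination factor, with 6.32, 6.42 and 6.14 at 24 h in DMSO and 5.77, 5.33 and 5.59 at 0 h (0.73 ± 0.15, adjusted p = 0.0345, limma). RGS18, which limits signals of G protein-coupled receptors, had 8.02, 7.78 and 7.69 at 24 h in DMSO and 7.13, 6.95 and 7.29 at 0 h (0.71 ± 0.14, adjusted p = 0.0343, limma). TBCK, a pseudokinase linked to growth signalling, had 8.46, 8.61 and 8.55 at 24 h in DMSO and 7.995, 7.59 and 8.15 at 0 h (0.62 ± 0.11, adjusted p = 0.011, limma). None of the 3 genes kept its call in all 6 fits that left out an array: RAD51B and RGS18 did in 1 and TBCK in 3.

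Outside the list, 3 genes passed in all 6 of those fits. HACD4, an enzyme of very long fatty acid elongation, had 8.69, 8.54 and 8.78 at 24 h in DMSO and 7.99, 7.87 and 8.19 at 0 h (0.66 ± 0.09, adjusted p = 0.00052, limma). PLSCR1, a phospholipid scramblase that interferon is known to induce, had 9.85, 9.73 and 10.01 at 24 h in DMSO and 9.11, 9.36 and 9.31 at 0 h (0.61 ± 0.10, adjusted p = 0.00181, limma). STAP1, an adaptor of B cell receptor signalling, had 10.004, 9.88 and 9.92 at 24 h in DMSO and 9.45, 9.26 and 9.63 at 0 h (0.48 ± 0.08, adjusted p = 0.00188, limma). The groups were apart in all 3, and the second probe set of STAP1 also passed in a fit of all probe sets, with a difference of 0.49 (adjusted p = 0.0214, limma). Those of PLSCR1 not used here were at 0.64 and 0.20. The other probe set of HACD4, dim with a mean of 2.45 at 24 h in DMSO, was at -0.12. With the mean of its probe sets HACD4 was at 0.27 and lost its call.

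The other 11 rose by 0.34 to 0.56. They were the long non-coding RNA LINC01095, the acetyl-CoA transporter SLC33A1, the small GTPase RABL3, the inflammasome sensor CARD8, the ubiquitin ligase TRIM69, the methyltransferase HEMK2, CDK2AP2, which binds the cell cycle kinase CDK2, the lysosomal protein SPG11, the Elongator subunit ELP4, the cyclin D-binding protein CCNDBP1 and the peroxisomal thioesterase ACOT8. LINC01095 had 8.67, 8.43 and 8.63 at 24 h in DMSO and 7.94, 8.13 and 7.98 at 0 h. CARD8 had 8.21, 8.29 and 8.16 at 24 h in DMSO and 7.80, 7.50 and 7.86 at 0 h, and CDK2AP2 had 9.37, 9.40 and 9.21, against 8.87, 8.72 and 8.95. None of the 11 groups overlapped, and each lost its call in at least 4 of the 6 fits that left out an array.

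The 4 genes that fell have different known roles. PSPC1, a protein of nuclear paraspeckles, had 8.37, 8.37 and 8.46 at 24 h in DMSO and 9.10, 9.42 and 8.79 at 0 h (-0.70 ± 0.15, adjusted p = 0.04, limma). TOMM20, the receptor of the mitochondrial import pore, had 11.06, 11.04 and 11.10 at 24 h in DMSO and 11.55, 11.61 and 11.37 at 0 h (-0.44 ± 0.09, adjusted p = 0.0248, limma). In both the 24 h arrays agreed closely and the 0 h arrays were spread. CIRBP, an RNA-binding protein induced by mild cold, had 11.31, 11.37 and 11.41 at 24 h in DMSO and 11.82, 11.73 and 11.69 at 0 h (-0.39 ± 0.08, adjusted p = 0.0368, limma). AZIN1, which protects the polyamine enzyme ornithine decarboxylase from degradation, had 9.46, 9.52 and 9.39 at 24 h in DMSO and 9.90, 9.85 and 9.65 at 0 h (-0.34 ± 0.07, adjusted p = 0.0345, limma). Each of the 4 passed in 1 of the 6 fits that left out an array, which was that without 0 h replicate 3, and in none with only the 6 arrays compared.

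Other probe sets of the same genes gave a second reading. The interferon genes that rose had 12 others in 9 genes, of which 12 had a positive difference and 5 passed in a fit of all probe sets. The other genes that rose had 24 others in 11 genes, of which 12 were positive and 1 passed. For the genes that fell, 5 of 11 others were negative and 1 passed, a second CIRBP probe set at -0.54 (adjusted p = 0.0206, limma). Both other probe sets of AZIN1 were positive, 0.26 and 0.37, and that of TOMM20 was 0.0048. The other probe sets of PSPC1 were at 0.13 and 0.12 and, for the dimmer ones, at -0.38 and -0.18. The probe set of ACOT8 not used here was at -0.42. Calls of genes whose probe sets had opposite signs, 13 of the 24 with several, hold for the brightest probe set. Of the 35 probe sets, 10 can match several transcripts, among them those of IFIT5, IRF7, OAS1, RIGI, PLSCR1, CIRBP and TOMM20.

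The 8 h DMSO arrays place these changes in time. Against 0 h, 0 genes passed at 8 h (limma), and 523 had an unadjusted p under 0.05. IFIT1 had 6.66, 6.94 and 6.40 at 8 h, and RIGI 7.55, 7.62 and 7.66, both overlapping their 0 h values. Against 8 h, 18 genes passed at 24 h in DMSO (0.091%): 17 rose (0.086%) and 1 fell (0.00506%), SLC35B4, a nucleotide sugar transporter (-0.27 ± 0.05, adjusted p = 0.0452, limma). Of the 14 interferon genes, 11 passed in this comparison as well, which shares the 24 h arrays, with a median difference of 0.82 for the 14. IFIT1 was 1.42 above 8 h (adjusted p = 1.65e-06), IFI44L 1.18 (adjusted p = 0.000937) and IFIT3 1.17 (adjusted p = 8.04e-05, limma). Of the other 17 genes that rose, 4 passed against 8 h, HACD4, PLSCR1, LINC01095 and STAP1, and their median was 0.35. None of the 4 that fell passed against 8 h. The count of 18 was 7 without 24 h DMSO replicate 3 and without DMSO 8 h replicate 1.

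Against 24 h, 16 genes were higher at 48 h in DMSO (0.0809%), 12 of them in the interferon list, and 1 was lower (0.00506%), the dim LOC100289473. Of the 14 that had risen by 24 h, 7 passed, with IFI44L a further 1.20 higher (adjusted p = 0.00181), IFIT1 1.01 (adjusted p = 0.00137) and IFIT3 0.80 (adjusted p = 0.0138, limma). Of the other 17, 1 passed, PLSCR1, at 0.62 (adjusted p = 0.00465, limma), and 8 of the 17 were lower. Members that had not passed at 24 h did so here: OAS2 at 0.97, IFI44 at 0.88, MX1 at 0.70, MX2 at 0.69 and DHX58 at 0.57. IFI6 averaged 11.07 at 48 h, against 10.05 at 24 h, and IFI27 7.20, against 6.26, without passing (adjusted p = 0.456 and 0.672, limma). These comparisons share the 24 h arrays. The total of 17 was 4 and 1 without 24 h DMSO replicates 1 and 2, and 2 without DMSO 48 h replicate 1 and also without replicate 3.

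Relative to 0 h, the median of the 14 interferon genes stood at 0.06 at 8 h, 0.88 at 24 h, 1.52 at 48 h, 1.73 at 72 h and 1.56 at 6 days in DMSO. For the other 17 genes that rose it was 0.15, 0.50, 0.50, 0.58 and 0.36 at the same times. The 25 interferon genes that did not pass at 24 h had medians of -0.04, 0.28, 0.92, 1.03 and 0.97, and the 4 genes that fell -0.07, -0.41, -0.44, -0.51 and -0.40. All these values use the same 0 h arrays. Those at 6 days include DMSO 6 days replicate 3, the array that stood apart. The median level of the 14 interferon genes was 8.57 in it, against 8.85 and 8.93 in replicates 1 and 2.

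**Figure D3:**
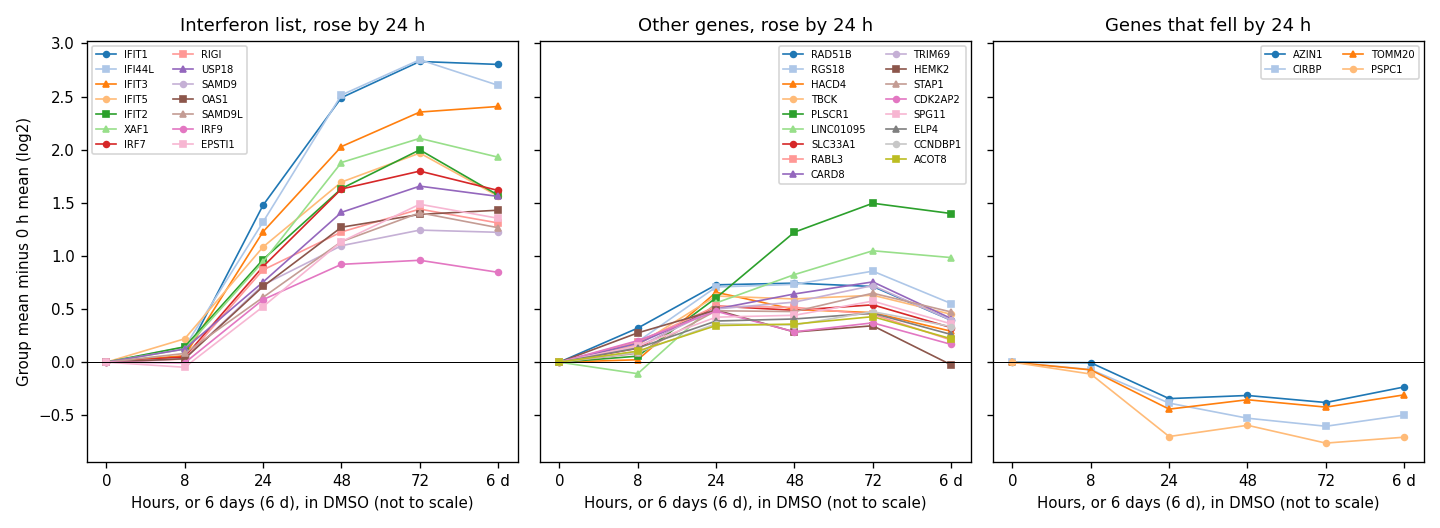
Group mean minus the 0 h mean (log2) at 0, 8, 24, 48 and 72 h and 6 days in DMSO for the 14 interferon-list genes that rose by 24 h (left), the 17 other genes that rose (middle) and the 4 that fell (right). Each line is a gene and the time axis is not to scale. All 14 interferon genes lie higher at 48 h than at 24 h. Among the 17 others PLSCR1 lies highest from 48 h on.

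The cultures with EED226 give a step from 8 h to 24 h. None of these arrays is in the 24 h DMSO or 0 h groups, though all 33 arrays share the estimate of the spread and chose the probe sets. The step starts at 8 h, so it covers a shorter interval than 24 h DMSO against 0 h. The cells of this step also held the inhibitor. From 8 h to 24 h in EED226, 101 genes passed (0.511%): 98 rose (0.496%) and 3 fell (0.0152%), TOR4A, FERMT3 and C11orf24. All 31 genes that had risen in DMSO were higher at 24 h than at 8 h in EED226, and 20 of them passed. The 14 interferon genes all passed, by 0.76 to 1.89 with a median of 1.07, and 6 of the other 17 did. IFIT1 averaged 1.89 ± 0.14 higher (adjusted p = 2.98e-09), IFIT3 1.62 ± 0.14 (adjusted p = 1.41e-07) and IFIT2 1.60 ± 0.18 (adjusted p = 5.44e-06, limma). The 4 genes that fell in DMSO were all lower at 24 h in EED226, by 0.23 to 0.53, and 0 passed. The difference between the 8 to 24 h step in EED226 and that in DMSO passed for 0 of the 35 genes, and for 4 of all genes (0.0202%). For the 14 interferon genes this difference had a median of 0.37 and was positive in all 14. Leaving out 1 of the EED226 arrays gave 52 to 81 genes past the test, fewest without EED226 24 h replicate 1.

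**Figure D4:**
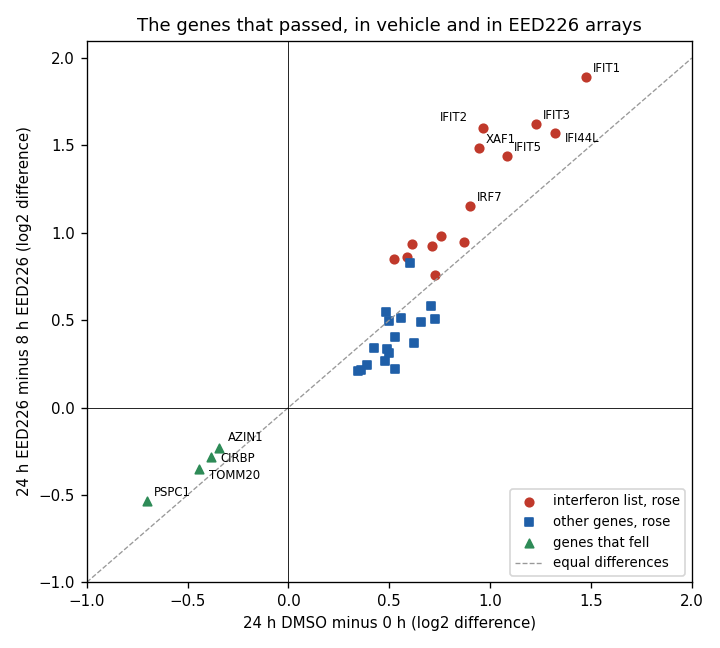
Difference between 24 h and 8 h in EED226 (vertical axis, log2) against the difference between 24 h DMSO and 0 h (horizontal axis, log2) for the 35 genes that passed the second. The dashed line marks equal differences, although the vertical axis starts from 8 h and the horizontal axis from 0 h. Red circles are interferon-list genes, blue squares other genes that rose and green triangles genes that fell. All 31 genes that rose lie above 0 and all 4 that fell below 0 on both axes.

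Lists of other pathways held 1 gene that passed, AZIN1 among the polyamine genes. For these lists the share of members whose groups did not overlap is read beside 14.1% of all genes. Genes of the G2 and M phases stood out by count, although none of the 53 passed. Their groups did not overlap for 22 (41.5%), all higher at 24 h in DMSO, 50 differences were positive and the median was 0.16. The mitotic kinesin KIF20A had 8.80, 8.84 and 8.77 at 24 h in DMSO and 8.53, 8.18 and 8.50 at 0 h (0.40 ± 0.11, adjusted p = 0.209, limma), and the spindle protein PRC1 had 9.77, 9.70 and 9.63, against 9.48, 9.14 and 9.41 (0.36 ± 0.10, adjusted p = 0.218, limma). In both genes 0 h replicate 2 was the lowest array. Without 0 h replicate 2 the list's median was 0.0793.

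Genes of ribosome biogenesis and MYC targets leaned the other way by count, again with 0 of 37 past the test. Groups did not overlap for 12 (32.4%), all lower at 24 h in DMSO, 33 differences were negative and the median was -0.087. NIP7, which matures the large ribosomal subunit, had 9.58, 9.81 and 9.92 at 24 h in DMSO and 10.09, 10.21 and 10.07 at 0 h (-0.35 ± 0.09, adjusted p = 0.141, limma). NOLC1, a nucleolar chaperone, had 10.27, 10.37 and 10.35 at 24 h in DMSO and 10.64, 10.53 and 10.45 at 0 h (-0.20 ± 0.07, adjusted p = 0.325, limma). The groups were apart in both genes. Leaving out 1 array at a time moved the list's median between -0.135, without 0 h replicate 3, and -0.065, without 0 h replicate 1. MYC itself averaged 11.65 at 24 h in DMSO and 11.59 at 0 h (adjusted p = 0.946, limma), and cytosolic ribosomal protein genes had a median of 0.0033 over 38 members.

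Among the other lists the shares of members without overlap ran from 0.0% to 33.3%. The highest were those of iron and metal genes (33.3% of 15), polyamine genes (3 of 10), nucleotide synthesis genes (27.3% of 22), heat shock genes (23.5% of 17, all 4 higher, with 14 of 17 differences positive), CDK inhibitors and quiescence genes (23.1% of 26) and mitochondrial ribosomal protein genes (22.2% of 45, 8 lower and 2 higher). Among iron and metal genes the metallothionein MT1X had 12.15, 12.22 and 12.18 at 24 h in DMSO and 12.51, 12.43 and 12.30 at 0 h (-0.23 ± 0.07, adjusted p = 0.225, limma). Among polyamine genes ornithine decarboxylase, ODC1, averaged 12.66 at 24 h in DMSO and 12.79 at 0 h (adjusted p = 0.665, limma). In nucleotide synthesis 4 genes were lower and 2 higher without overlap. Taken over their members, the heat shock, nucleotide synthesis and mitochondrial ribosomal protein lists overlapped between the single arrays of the groups.

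In the other lists no member passed, and their medians lay between -0.095 and 0.0884. In cholesterol synthesis INSIG1, a brake on sterol production that is itself induced by the SREBP factors, had 9.47, 9.33 and 9.54 at 24 h in DMSO and 9.02, 8.67 and 8.80 at 0 h (0.62 ± 0.15, adjusted p = 0.0924, limma). The germinal centre serpin SERPINA9 had 8.65, 8.72 and 8.82 at 24 h in DMSO and 8.06, 8.18 and 8.53 at 0 h (0.47 ± 0.12, adjusted p = 0.136, limma). PMEPA1, a TGF-beta target that restrains that pathway, had 5.44, 5.68 and 5.76 at 24 h in DMSO and 6.22, 6.44 and 6.21 at 0 h (-0.67 ± 0.16, adjusted p = 0.105, limma). None of these 3 passed, though their groups did not overlap. Of antigen presentation genes of class I, the peptide transporter TAP2 averaged 8.90 at 24 h in DMSO and 9.25 at 0 h (-0.35 ± 0.09, adjusted p = 0.141, limma). KLF10, an early response gene, averaged 7.25 at 24 h in DMSO and 7.73 at 0 h (-0.48 ± 0.14, adjusted p = 0.223, limma), and NFKBID, an inhibitor of NF-kB, 4.56 and 5.10 (adjusted p = 0.214, limma). HMOX1, the haem-degrading enzyme, had 4.65, 5.26 and 5.14 at 24 h in DMSO and 5.20, 6.45 and 5.60 at 0 h, with overlap (adjusted p = 0.483, limma). EZH2, the catalytic subunit of PRC2, averaged 10.28 at 24 h in DMSO and 10.15 at 0 h (0.13 ± 0.08, adjusted p = 0.813, limma).

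**Figure D5:**
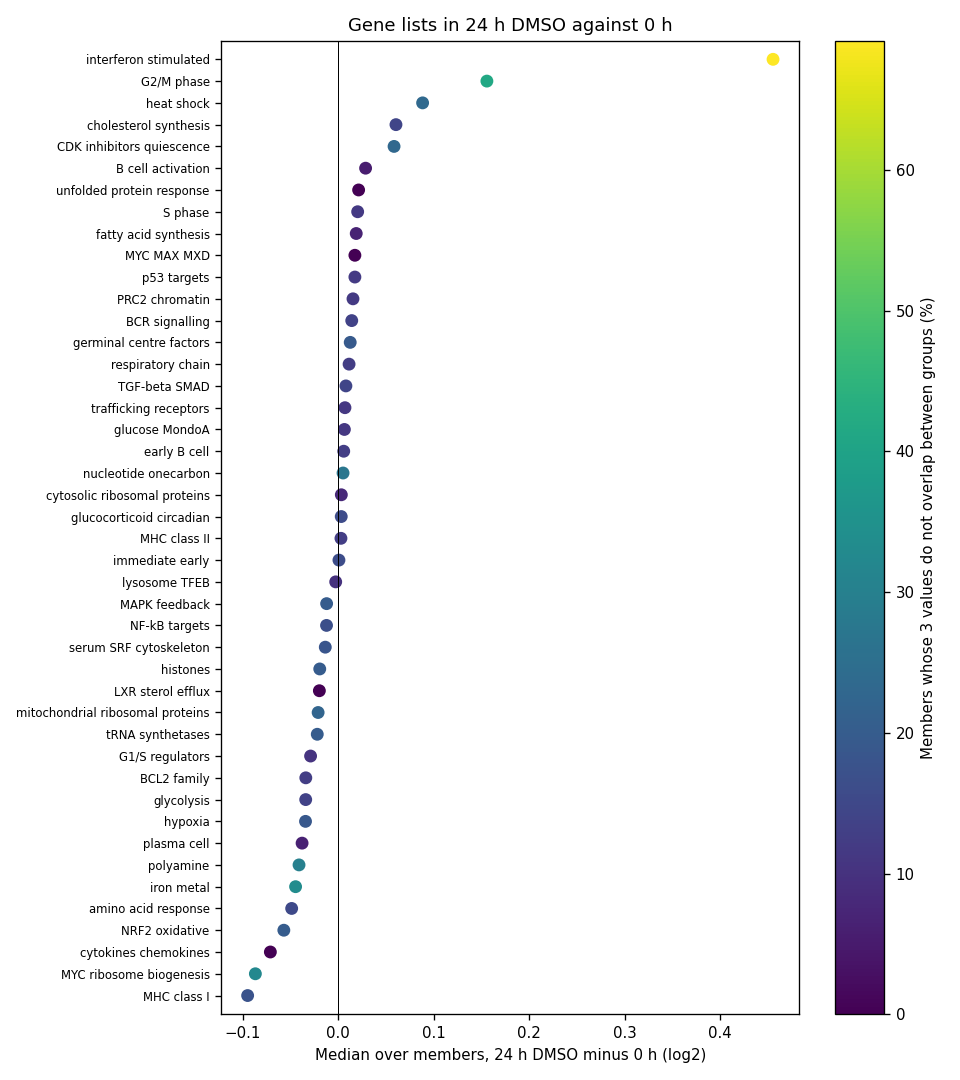
Median over the measured members of each gene list of the difference between 24 h DMSO and 0 h (horizontal axis, log2), with lists ordered by it. The colour gives the share of members whose 3 values at 24 h in DMSO do not overlap the 3 at 0 h. The interferon list stands at 0.46 with 69.2%, the G2/M list at 0.16 with 41.5%, and the median of all genes is 0.0039.

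Probe sets without a single gene symbol were tested apart. Of 13522, 0 passed, 672 had an unadjusted p under 0.05, and the smallest adjusted p was 0.11 (limma).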

How the data were processed

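Total RNA of Karpas422 cells was extracted with TRIZOL and labelled for Affymetrix 3′ arrays, per the labels' protocols. The authors deposited 1 log2 value for each probe set and array. These are RMA values according to the submitters' processing notes. RMA includes quantile normalization, so levels are relative to the other arrays. No source used here names the RMA software. There were 54675 probe sets. Of these, 62 were controls, 41091 had 1 gene symbol in the platform annotation, 1801 several and 11721 were not named here. The brightest probe set by the mean of the 33 arrays stood for each of 19775 genes, and 10523 genes had several.

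Groups came from the sample titles. Differences were fitted with limma 3.58.1 in R 4.3.3, by lmFit and eBayes, on all 33 arrays with a mean for each group, which left 22 residual degrees of freedom. SE are limma's. No filter on dim genes was used. The number of arrays limits the precision, and p-values measure the spread between arrays the design text calls biological triplicates. The code was tested on simulated data. No 2 arrays held identical values.

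The members and the 49 lists, with 1060 member entries measured, were chosen with earlier results of these data known, and the list of pathway parts after the values were seen. Named genes were, among those that passed, did not overlap between groups and had a mean of at least 6 in the higher group, the 14 largest rises and 14 largest falls, and in further comparisons the 3 largest each way, and the 3 members of each list with the smallest p. IFIT5, the other genes that passed and the further list members named were chosen after their values were seen. Alternatives changed the arrays, the eBayes options, the weights, the scaling, the probe set per gene, the dim-gene filter, the ACTB 3′ minus 5′ covariate and the replicate block.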

Additional observations from a re-analysis of the deposited data

Results flagged for a closer look

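The step from 8 h to 24 h differed between EED226 and DMSO for 4 genes by limma's test of the difference itself, and none of them passed between 24 h DMSO and 0 h. The differences of the steps, EED226 minus DMSO, were 1.16 for AGO4 (adjusted p = 0.0153), 1.24 for ECI2 (adjusted p = 0.0125), 1.54 for KIAA1210 (adjusted p = 0.0153) and 1.47 for TMEM100 (adjusted p = 0.0125, limma). AGO4 had a step of 0.57 in EED226 and -0.58 in DMSO, ECI2 1.27 in EED226 and 0.03 in DMSO, KIAA1210 1.81 in EED226 and 0.27 in DMSO, and TMEM100 1.30 in EED226 and -0.17 in DMSO. No gene passed this test when DMSO 8 h replicate 1 or 2 or EED226 8 h replicate 3 was left out, and 1 did without replicate 1 of the 24 h DMSO or 24 h EED226 arrays.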

How the results depend on the processing

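Precision was limited by 3 arrays a group and by dim probe sets, where differences are compressed. Leaving out 0 h replicate 3 gave 46 genes for 24 h DMSO against 0 h, within 1.5 times of the count of 35. With array medians centred (32 genes) and the ACTB covariate (37) the count also stayed there. With the brightest probe set by the 6 arrays (35) and the mean of probe sets (27, with 2 lower) the count did too. It was 6 (6 higher, 0 lower) with only the arrays compared, 95 (73 and 22) with trended and robust eBayes, 66 (58 and 8) with array weights, 76 (59 and 17) after quantile normalization again, 110 (85 and 25) for genes above the median level, and 79 (65 and 14) without DMSO 6 days replicate 3. With the replicate number as a block it was 63 (50 and 13), although the numbers were not taken to pair the arrays: deviations of same-numbered 24 h DMSO and 0 h arrays from their group means correlated with 0.12, 0.002 and 0.16. Leaving out 1 array gave 13 to 46 genes, 13 to 38 higher and 0 to 8 lower: 14, 22 and 14 without 24 h DMSO replicates 1, 2 and 3, and 15, 13 and 46 without 0 h replicates 1, 2 and 3. The interferon list's count of 14 was 6 with only the arrays compared and 9 to 14 with an array left out. The causes were not tested, apart from the smaller number of arrays or genes that some alternatives test.

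IFIT1, IFI44L, IFIT3 and IFIT5 passed in all 17 alternatives. With the mean of all probe sets ACOT8 turned to -0.0377 and AZIN1 to 0.0972. Over the genes that passed and the interferon list, 160 of the values under an alternative lost the call, 28 gained it and 827 kept their side.

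At 8 h against 0 h the count was 0 in every alternative run. For 24 h against 8 h in DMSO it was 18, and 0 with only the arrays compared, 43 with array weights, 29 after quantile normalization again, 28 without DMSO 6 days replicate 3 and 7 to 18 with an array left out. For 48 h against 24 h it was 17, and 0 with only the arrays compared, 39 with array weights, 11 with the mean of probe sets and 1 to 14 with an array left out. For 24 h against 8 h in EED226 it was 101, and 25 with only the arrays compared, 158 with trended and robust eBayes, 276 with array weights, 152 for genes above the median level, 181 with the replicate block, 204 without DMSO 6 days replicate 3 and 52 to 81 with an array left out. The 4 genes of the difference of steps became 1 with only the arrays compared, 12 with array weights, 8 after quantile normalization again, 9 without DMSO 6 days replicate 3 and 0 to 5 with an array left out. The alternatives for this difference and for the interferon count were chosen after seeing the data.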
